A study of Mus musculus with 6 samples.

Results

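The genes examined here are 27 genes of cholesterol synthesis, uptake and efflux, measured in inguinal white fat, which lies under the skin of the mouse groin. They were chosen by name, as the rows of the deposited gene count table that carry these symbols, and all 27 were found, each in 1 row, among 52550 genes in the table. All 27 passed the filter on low counts, and their lowest count in any library was 331. The tissue came from C57BL/6 mice in which an adeno-associated virus had been injected into the fat pad. In the 3 A2B1 libraries the virus delivered mouse Hnrnpa2b1 as its coding sequence. This gene encodes an hnRNP, a protein that binds RNA and acts in splicing. In the 3 control libraries it carried a scrambled control, which the series' design text also names as GFP. All 6 libraries therefore came from pads that had received a virus. The age and sex of the mice, the promoter in the vector, the time after injection and whether each library came from a separate animal are not stated in the labels, so the spread behind each p-value is that between libraries and may be technical. The source is also labelled as adipocytes, but the markers below include those of macrophages, vessels and fibroblasts, as in whole tissue.

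Cells make cholesterol from acetyl-CoA by way of mevalonate, squalene and lanosterol. When sterol in the endoplasmic reticulum is scarce, the transcription factor SREBP2, the product of Srebf2, switches on most enzymes of this route together. When sterol is plentiful, the nuclear receptors called LXRs switch on exporters such as Abca1 and Abcg1 and, in adipocytes and macrophages, Apoe. White fat holds a large store of cholesterol, much of it at the lipid droplet, and takes most of it up from lipoproteins.

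The labels and the libraries were checked first. Hnrnpa2b1 had 763, 789 and 748 CPM (counts scaled to the size of the library) in A2B1 libraries 1, 2 and 3, against 555, 525 and 605 CPM in control libraries 1, 2 and 3. All A2B1 values lay above all control values, and the log2 fold change was 0.45 (SE 0.09, adjusted p = 0.0654 in edgeR's quasi-likelihood test). Viral and endogenous transcripts cannot be told apart in these counts. Total counts lay between 72961324 and 86663359 per library. The adipocyte marker Adipoq had 2714.6 to 2886.7 CPM in A2B1 libraries and 3099.5 to 3880.9 CPM in controls (adjusted p = 0.161). Across the 8 adipocyte markers 2 fell, Lep and Cidec, and 0 rose. By sign, 5 of the 8 log2 fold changes were positive and 3 negative. Groups did not overlap for 75% of the 8, against 30.6% of all tested genes. Of these markers 3 were higher in A2B1 (Plin1, Pnpla2 and Cfd) and 3 lower (Adipoq, Lep and Cidec). Of 5 markers of brown and beige fat 2 rose, Cidea and Cox8b, and 0 fell. Among all 19146 tested genes 349 passed an adjusted p of 0.05, which is 1.82%.

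Certain libraries were high in genes of liver, B cells or skeletal muscle. A list of 12 genes of liver, written after their values were seen, summed to 11278.7 CPM in A2B1 library 1, 1351.9 in A2B1 library 3 and 100.04 in A2B1 library 2, against 134.6 to 222 CPM in controls. Albumin (Alb) alone had 6238.3 CPM in A2B1 library 1 and 67.1 in A2B1 library 2. All 12 liver genes had counts in every library. The 6 B cell markers summed to 3.90 to 4.24 CPM in A2B1 libraries, against 262 CPM in control library 1, 30.2 in control library 2 and 3.13 in control library 3. None of the 6 was at 0 in any library. Of 5 skeletal muscle genes, Myh4 had 4814 counts and Ckm 1524 counts in control library 3, against at most 6 counts of either in any other library, A2B1 or control. The other 3 muscle genes summed to 2.92 to 13.6 CPM in A2B1 libraries, against 74.2 CPM in control library 3 and 17.8 and 22.3 CPM in control libraries 1 and 2. Values without A2B1 library 1 or control library 1 are given below for members whose values moved most. Without control library 3, edgeR called 0 of the 27 genes. It called only 0.202% of all 19756 genes tested in that fit, so this count says little about the members. Log2 fold changes there were 1.09 for Apoe, 0.41 for Msmo1, 0.36 for Acat2, -0.58 for Npc2 and -1.09 for Soat1.

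The comparison of A2B1 with control pads asks which transcripts differ when Hnrnpa2b1 is delivered to the fat pad. Of the 27 cholesterol genes, edgeR's test called 0 higher and 0 lower at an adjusted p under 0.05, where it called 1.82% of all tested genes (0.496% higher, 1.33% lower). The 5 members with an unadjusted p under 0.05 were Apoe, Msmo1 and Acat2, which were higher, and Npc2 and Soat1, which were lower. They are 18.5% of the 27, against 24.2% of all tested genes (11.5% higher, 12.7% lower). The same 5 had groups that did not overlap, again 18.5%, against 30.6% of all tested genes (15.1% higher, 15.5% lower). Both shares of the members were below those of all tested genes. DESeq2 called 4 of them, Apoe and Msmo1 higher and Npc2 and Soat1 lower, where it called 16.2% of the 18000 genes to which it gave an adjusted p (7.40% higher, 8.82% lower). Limma-voom called 0 of the 27 and 2.44% of all tested genes (0.773% higher, 1.67% lower). At an adjusted p under 0.1, edgeR called 1 member, Apoe, and 6.63% of all tested genes (2.47% higher, 4.17% lower). The 27 genes had 12 positive and 15 negative log2 fold changes with a median of -0.06, and all tested genes had a median of 0.0021.

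**Figure D1:**
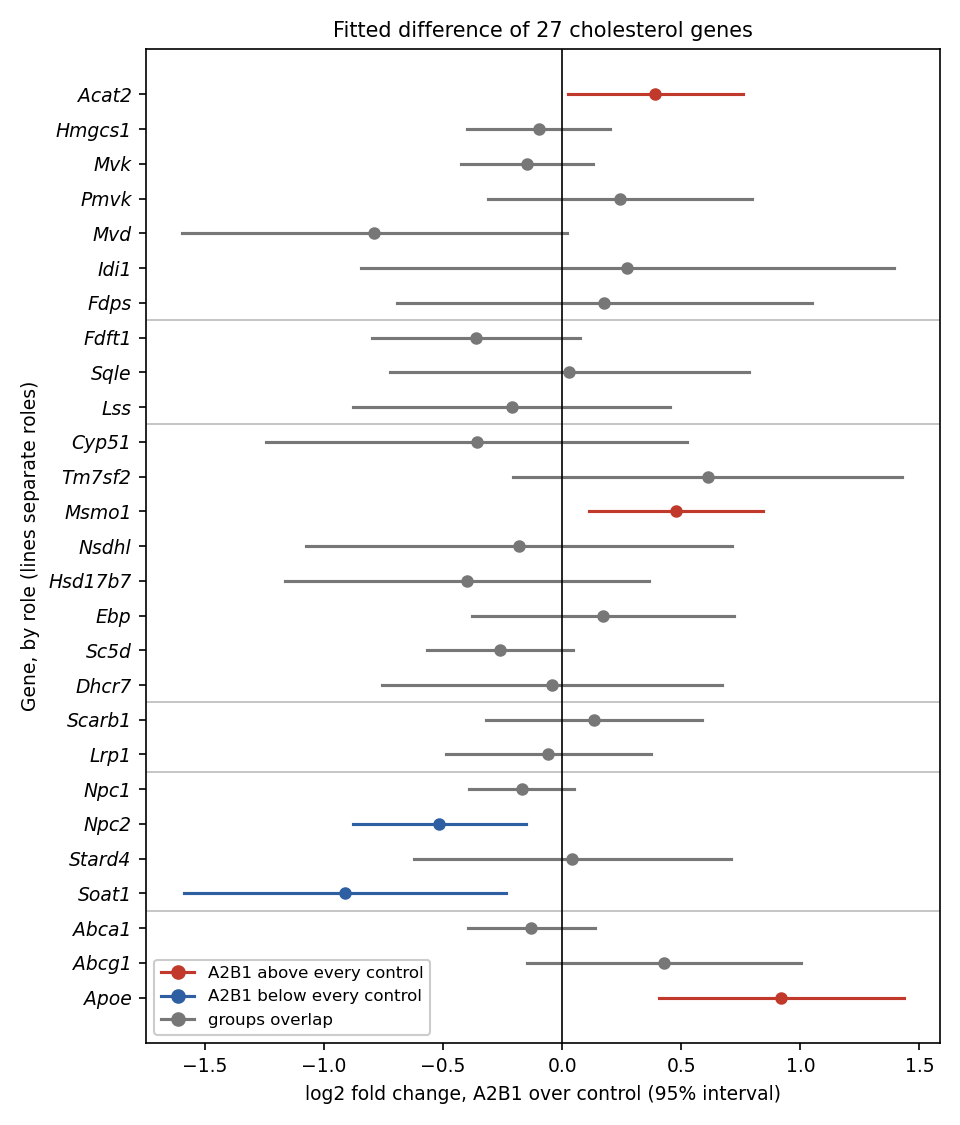
Fitted log2 fold change of A2B1 over control for each of the 27 genes (points) with its 95% interval from edgeR's fit (lines), in order of the genes' roles. The intervals of Acat2, Msmo1, Npc2, Soat1 and Apoe leave out 0, without adjustment for the number of genes tested, and the other 22 include it.

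Expressed per kilobase of annotated exon, Apoe was the most abundant of the 27 transcripts, at 828 CPM per kb in A2B1 and 438 CPM per kb in control pads. Hmgcs1 came next, at 147 CPM per kb in A2B1 and 157 in control pads, and then Npc2 at 86.8 and 124 CPM per kb. Among the synthesis genes Sc5d stood second at 46.8 CPM per kb in A2B1 and 56.1 in control pads. The synthesis enzyme Tm7sf2, at 1.96 and 1.28 CPM per kb, and the esterifying enzyme Soat1, at 0.886 and 1.67 CPM per kb, were the least abundant in both groups. Exons of 8 members overlap those of another gene in GENCODE M21. The largest such overlap is that of Fdps, where 26.7% of the exon bases are shared with Gm43738 on the same strand. No source used here says whether counting used strand. Counts of Fdps, Fdft1, Hmgcs1, Tm7sf2, Idi1, Npc1, Cyp51 and Lss are uncertain to that extent.

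The enzymes of the early route, from acetyl-CoA to farnesyl diphosphate, had fold changes of both signs. Acat2, the cytosolic thiolase that joins acetyl-CoA units (mm10 chromosome 17, 12942890 to 12960747, minus strand), had 145, 104 and 104 CPM in A2B1 libraries and 98.1, 84.8 and 86.5 CPM in controls. Every A2B1 library was above every control, and A2B1 library 1 was above the rest. The fold was 1.31 (95% interval 1.02 to 1.69; log2 fold change 0.39, SE 0.15, adjusted p = 0.188). Without A2B1 library 1 it was 0.23.

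Hmgcs1, the cytosolic HMG-CoA synthase, makes a precursor of mevalonate. It had 631, 688 and 705 CPM in A2B1 libraries, against 811, 742 and 613 CPM in controls. The lowest value was in control library 3 and the groups overlapped. The fold was 0.934 with a 95% interval of 0.758 to 1.15 (log2 fold change -0.10, adjusted p = 0.663).

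The kinases Mvk and Pmvk, which phosphorylate mevalonate in turn, had log2 fold changes of -0.15 (SE 0.11) and 0.24 (SE 0.23). Pmvk had 0.085 without A2B1 library 1 and 0.48 without control library 1. Mvd, the decarboxylase that makes isopentenyl diphosphate, averaged 5.24 ± 0.684 CPM in A2B1 and 9.05 ± 4.20 CPM in control pads (SD, n = 3 each). The control values of Mvd were 13.8, 7.71 and 5.69 CPM, with control library 1 far above the others and a control value level with the highest A2B1 value. The log2 fold change was -0.79 (SE 0.34, adjusted p = 0.214), and -0.35 without control library 1. Idi1, which isomerises isopentenyl diphosphate, had 58.0, 18.0 and 39.8 CPM in A2B1 libraries, with library 2 far below library 1, against 43.8, 26.6 and 25.5 CPM in controls. The log2 fold change of 0.27 (SE 0.45) was -0.13 without A2B1 library 1. Fdps, which builds farnesyl diphosphate, had 0.18 (SE 0.36) in all libraries and -0.18 without A2B1 library 1.

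The steps from farnesyl diphosphate to lanosterol showed 1 positive and 2 negative values. Lss, which folds squalene epoxide into lanosterol, had 42.3, 34.8 and 33.4 CPM in A2B1 libraries and 61.6, 35.8 and 30.5 CPM in controls. Control library 1 was the highest and control library 3 the lowest. The log2 fold change of -0.21 (SE 0.27, adjusted p = 0.671) was 0.16 without control library 1. Squalene synthase, Fdft1, averaged 28.8 ± 3.35 CPM in A2B1 and 37.0 ± 8.04 CPM in control pads (SD, n = 3 each; adjusted p = 0.274). Sqle, the squalene epoxidase and a rate-limiting enzyme of the later route, had a log2 fold change of 0.03 (SE 0.31) with a 95% interval of the fold of 0.606 to 1.72. Without A2B1 library 1 its value was -0.27, and without control library 1 it was 0.33.

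From lanosterol to cholesterol, 3 of 8 enzymes had positive and 5 negative values. Msmo1 (chromosome 8, 64718139 to 64733792, minus strand) is an oxygenase that acts in removing extra methyl groups from the sterol. It had 38.8, 27.6 and 28.9 CPM in A2B1 libraries, against 23.4, 24.3 and 20.8 CPM in controls. All A2B1 libraries were above all controls, with library 1 the highest. The fold was 1.39 (95% interval 1.08 to 1.79; log2 fold change 0.48, SE 0.15, adjusted p = 0.148 in edgeR and 0.0488 in DESeq2), and the log2 fold change without A2B1 library 1 was 0.33. Nsdhl and Hsd17b7, which act with Msmo1 in the same demethylation, had negative values of -0.18 (SE 0.36) and -0.40 (SE 0.32), with 95% intervals that include 0. Without control library 1 they had 0.30 and -0.034.

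Sc5d, a sterol desaturase near the end of the route and the most abundant of these 8 enzymes per kilobase, had 248, 212 and 224 CPM in A2B1 libraries and 316.5, 262.5 and 239.6 CPM in controls. Control library 1 was the highest, and A2B1 library 1 lay above control library 3, so the groups overlapped (log2 fold change -0.26, SE 0.13, adjusted p = 0.264). Tm7sf2, a sterol reductase, had 12.8, 5.85 and 7.18 CPM in A2B1 libraries and 7.11, 5.48 and 4.32 CPM in controls. The value of 0.61 on the log2 scale (SE 0.34, adjusted p = 0.318) was the largest positive one among the 18 synthesis genes. It was 0.23 without A2B1 library 1 and 0.82 without control library 1. The lanosterol demethylase Cyp51, the isomerase Ebp and the final reductase Dhcr7 had values of -0.36, 0.17 and -0.04, with standard errors of 0.23 to 0.36. Without control library 1, Cyp51 had 0.12 and Dhcr7 0.30, and without A2B1 library 1, Ebp had -0.12 and Dhcr7 -0.25.

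The 18 synthesis genes were high in the same libraries of both groups. Each of the 18 had its highest CPM in either A2B1 library 1 (8 genes) or control library 1 (10 genes). Within the A2B1 group, 17 of 18 were highest in library 1, the exception being Hmgcs1, against 32.8% of all tested genes. Within the control group, 17 of 18 were highest in library 1, the exception being Msmo1, against 38.4% of all tested genes. The median ratio of A2B1 library 1 to the mean of the other A2B1 libraries was 1.39, with a range of 0.906 to 2.01. The median ratio of control library 1 to the mean of the other controls was 1.6, with a range of 1.04 to 2.18. These counts describe libraries picked for their values and carry no test.

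The enzymes with the largest ratios differed between these libraries, but several were raised in both. Idi1, Tm7sf2, Fdps, Sqle and Ebp were 2.01, 1.96, 1.88, 1.73 and 1.71 times the mean of the other A2B1 libraries in A2B1 library 1. In control library 1 these same enzymes were 1.68, 1.45, 1.76, 1.69 and 1.11 times the mean of the other controls. There, Nsdhl, Cyp51, Mvd, Lss and Hsd17b7 were 2.18, 2.17, 2.05, 1.86 and 1.85 times that mean. In A2B1 library 1 these latter enzymes were 1.48, 1.3, 1.14, 1.24 and 1.44 times the mean of the other A2B1 libraries. Liver genes were high in A2B1 library 1 and B cell genes in control library 1, as given above, and their part in these values was not tested. In A2B1 library 3, where the liver genes summed to 1351.9 CPM, the 17 synthesis genes other than Hmgcs1 summed to 696 CPM, beside 676 CPM in A2B1 library 2 and 936 CPM in A2B1 library 1. In controls the same sums were 988, 714 and 665 CPM. The median log2 fold change of the 18 genes was -0.07 in all libraries, -0.22 without A2B1 library 1, 0.27 without control library 1 and 0.04 without both. The last of these settings was added once the data had been seen.

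**Figure D2:**
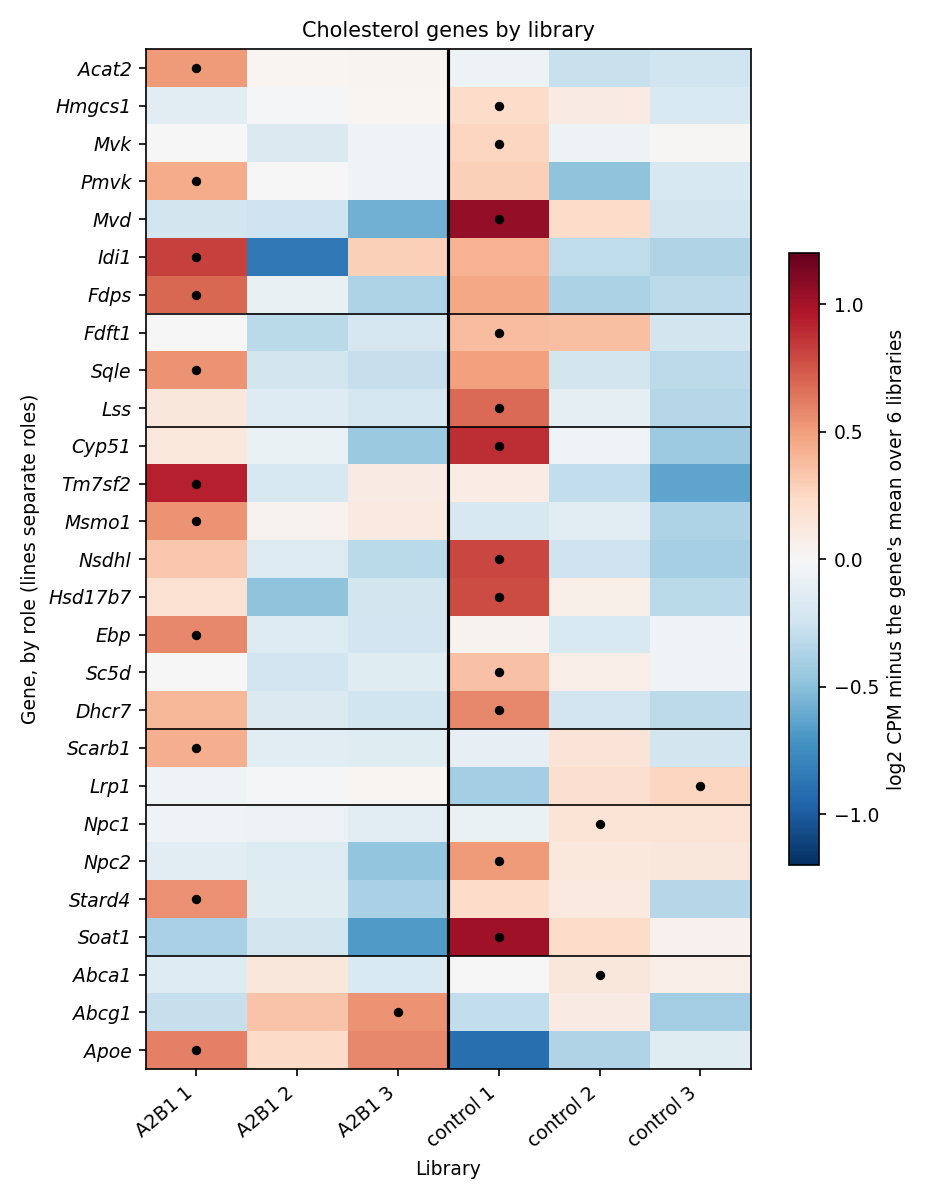
Log2 CPM of each of the 27 genes in each library, relative to the gene's mean over the 6 libraries (red above, blue below). Black dots mark the library with the highest value, which is A2B1 library 1 or control library 1 for all 18 synthesis genes in the upper rows, and spread over 5 libraries for the 9 uptake, transport and efflux genes.

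**Figure D3:**
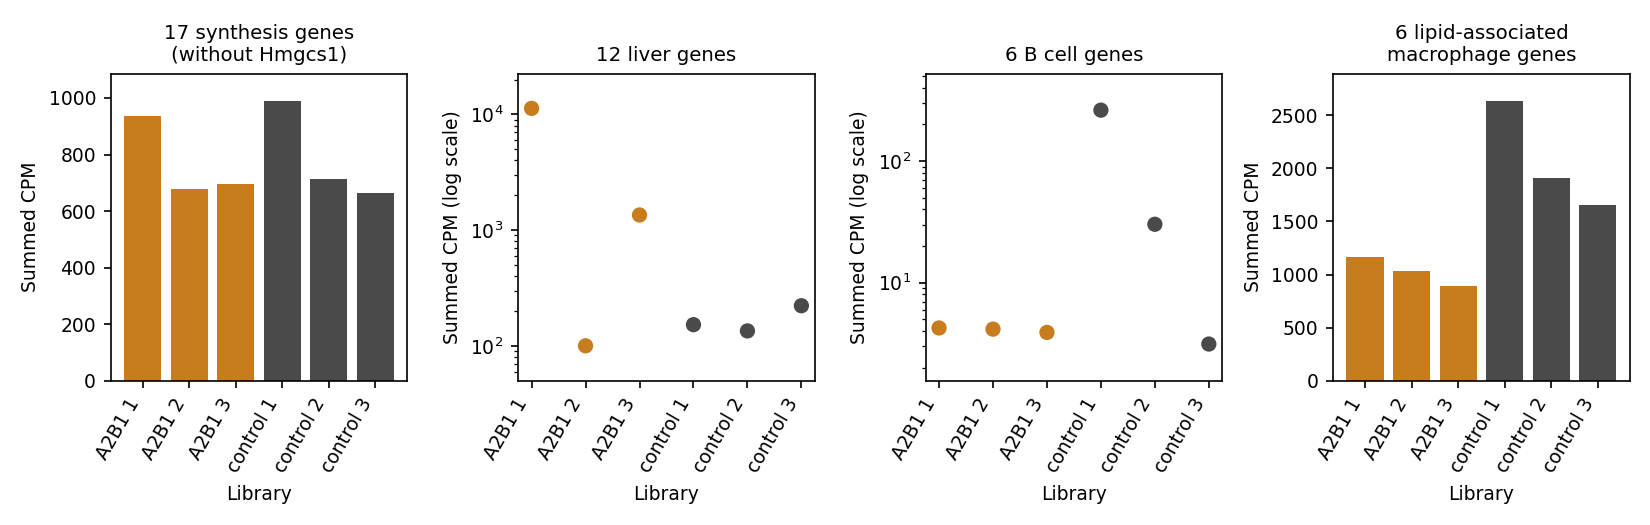
Summed CPM in each library of 17 synthesis genes (without Hmgcs1), 12 liver genes, 6 B cell markers and 6 markers of lipid-associated macrophages, with the liver and B cell panels on a log scale. The synthesis sum is highest in A2B1 library 1 (936 CPM) and control library 1 (988 CPM), the libraries with the highest liver and B cell sums.

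The promoters of the members were searched for letters that genes of cholesterol handling are known to share. Any part of these letters in the levels by library was not tested. RefSeq promoters of 300 bases, from 250 before to 50 after the start of transcription on GRCm38.p6 (mm10), were matched for 20 members, with several start sites for Apoe, Dhcr7 and Pmvk, making 25 promoters in all. On both strands, the box of the factor NF-Y, CCAAT, was found in 16 of 25 member promoters (64.0%) and in 37.4% of all 32851 promoters of that length. By gene it was found for 14 of 15 synthesis genes and 2 of 5 transport genes, Npc2 and Soat1. The sterol regulatory element, TCACNCCAC, was found only in the promoter of Hmgcs1 among the 25, and in 1.24% of all promoters. The LXR type repeat, AGGTCA and AGGTCA with NNNN between, was found in 0 of 25 and in 0.0152% of all. That is 5 of 32851 promoters, so a count of 0 in 25 says little about the members. No 2 of the matches overlapped. A match is a description of letters and shows no binding. Only these exact letters within 300 bases were searched, so the lack of a match does not show the lack of an element.

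Below are 4 promoters, 5′ to 3′ on the gene's strand, with matches in capitals (CCAAT reads ATTGG on the other strand). Hmgcs1 (chr13:119690101-119690400, plus strand) is shown for the sterol element, which starts 137 bases before the start of transcription, and has 4 boxes. Mvk (chr5:114444019-114444318, plus strand) is shown for the 5 boxes in it. Nsdhl (chrX:72918271-72918570, plus strand) is shown because it had the largest excess in control library 1, and has 4 boxes. Acat2 (chr17:12960676-12960975, minus strand) is shown as the synthesis gene with none of the letters, and was also higher in every A2B1 library.
Hmgcs1: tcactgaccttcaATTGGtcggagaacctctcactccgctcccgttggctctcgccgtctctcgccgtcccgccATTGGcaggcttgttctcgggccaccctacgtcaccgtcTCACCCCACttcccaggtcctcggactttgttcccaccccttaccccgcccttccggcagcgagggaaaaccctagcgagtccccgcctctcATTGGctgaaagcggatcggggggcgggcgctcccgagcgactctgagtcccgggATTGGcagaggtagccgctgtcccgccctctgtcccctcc
Mvk: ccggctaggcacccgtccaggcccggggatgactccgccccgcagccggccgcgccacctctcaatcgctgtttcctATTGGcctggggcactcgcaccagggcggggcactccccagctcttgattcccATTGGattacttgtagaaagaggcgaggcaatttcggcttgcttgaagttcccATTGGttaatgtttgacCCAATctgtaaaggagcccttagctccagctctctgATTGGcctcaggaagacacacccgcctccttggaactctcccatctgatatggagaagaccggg
Nsdhl: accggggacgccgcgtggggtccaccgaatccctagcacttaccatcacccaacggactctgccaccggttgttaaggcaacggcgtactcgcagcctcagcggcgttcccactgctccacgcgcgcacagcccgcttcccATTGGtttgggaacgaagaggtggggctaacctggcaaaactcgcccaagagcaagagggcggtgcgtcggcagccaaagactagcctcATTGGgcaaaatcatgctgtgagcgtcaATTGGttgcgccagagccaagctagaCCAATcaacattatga
Acat2: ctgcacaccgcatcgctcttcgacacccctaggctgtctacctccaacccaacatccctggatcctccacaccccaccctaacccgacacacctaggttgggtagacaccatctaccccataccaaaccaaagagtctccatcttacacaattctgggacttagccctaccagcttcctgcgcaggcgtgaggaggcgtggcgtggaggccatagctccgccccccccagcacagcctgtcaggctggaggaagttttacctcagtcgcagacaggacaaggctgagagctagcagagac

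The uptake receptors had overlapping groups. Lrp1, an endocytic receptor that binds Apoe-bearing particles, had 763, 781 and 801 CPM in A2B1 libraries and 597, 902 and 942 CPM in controls. The A2B1 libraries lay close together, between the lowest control and the other two. Its log2 fold change was -0.06 (SE 0.18, adjusted p = 0.873). Scarb1, the receptor that takes cholesteryl ester from high density lipoprotein, averaged 109 ± 26.2 CPM in A2B1 and 99.2 ± 13.5 CPM in control pads (SD, n = 3 each; log2 fold change 0.13, SE 0.19, adjusted p = 0.701). Without A2B1 library 1 the value was -0.07.

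Among genes that move and store cholesterol inside the cell, Npc2 and Soat1 were lower in every A2B1 library. Npc2, the soluble lysosomal protein that hands cholesterol to the membrane protein Npc1 (chromosome 12, 84754562 to 84773152, minus strand), had 511, 500.6 and 404 CPM in A2B1 libraries, against 798, 611 and 616 CPM in controls. All A2B1 values were below all controls, of which library 1 was the highest. The fold was 0.699 (95% interval 0.544 to 0.899; log2 fold change -0.52, SE 0.15, adjusted p = 0.128 in edgeR and 0.0207 in DESeq2). For Npc1 itself the groups overlapped (log2 fold change -0.17, SE 0.09, adjusted p = 0.302), with 42.2 ± 1.31 CPM in A2B1 and 47.5 ± 4.54 CPM in control pads (SD, n = 3 each).

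Soat1, the enzyme that esterifies cholesterol for storage (chromosome 1, 156424525 to 156474331, minus strand), had 8.83, 9.94 and 7.26 CPM in A2B1 libraries and 23.5, 13.5 and 11.99 CPM in controls. The A2B1 values were all below the controls, of which library 1 was far above the others. The fold was 0.531 (95% interval 0.332 to 0.849; log2 fold change -0.91, SE 0.28, adjusted p = 0.141 in edgeR and 0.0188 in DESeq2), and without control library 1 the log2 fold change was -0.55. Stard4, a cytosolic sterol carrier, had overlapping groups and a log2 fold change of 0.04 (SE 0.27), or -0.26 without A2B1 library 1.

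Npc2 and Soat1 are abundant in macrophages, whose markers were therefore looked at beside them. All 10 macrophage markers had negative log2 fold changes, with summed levels of 341 to 767 CPM in A2B1 libraries and 769 to 1165.3 CPM in controls, and 0 of the 10 passed the test. At an unadjusted p under 0.05 there were 3 of them (Csf1r, Lyz2 and Cd163), the same 3 whose groups did not overlap. These are 30% of the list. Among all tested genes, 24.2% had such a p (12.7% lower) and 30.6% had no overlap (15.5% lower). The highest A2B1 sum, 767 CPM in library 2, was close to the lowest control sum, 769 CPM in library 3, and C1qb had 89.9 CPM in A2B1 library 2 against 66.5 CPM in control library 3. Of 6 markers of lipid-associated macrophages, which clear lipid from dying adipocytes, 5 had negative values. Only 1 of them, Cd9, passed edgeR's test (log2 fold change -0.65, adjusted p = 0.0402), and its exons overlap Gm26728 on the other strand. Of all tested genes, 1.33% passed as lower. All 5 had an unadjusted p under 0.05 and groups that did not overlap, which is 83.3% of the list. The shares of all tested genes that were lower were 12.7% and 15.5%, as above. The 6 markers summed to 896 to 1161.9 CPM in A2B1 libraries and 1654.1 to 2630.4 CPM in controls. None of these 16 markers was at 0 in any library. Their part in the values of Npc2 and Soat1 was not tested, and in bulk tissue fewer cells of a type and less RNA per cell cannot be told apart.

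Of the efflux genes, Apoe was the member with the smallest p of the 27. Apoe, the lipoprotein component that carries cholesterol out of macrophages and adipocytes (chromosome 7, 19696109 to 19699188, minus strand), had 1932.2, 1489.7 and 1886.3 CPM in A2B1 libraries and 677, 987 and 1142.5 CPM in controls. Every A2B1 library was above every control, and the lowest value was that of control library 1. The mean was 1769.4 ± 243 CPM in A2B1 and 936 ± 237 CPM in control pads (SD, n = 3 each). The fold was 1.89 (95% interval 1.32 to 2.70; log2 fold change 0.92, SE 0.21), with adjusted p-values of 0.0845 in edgeR and 0.000926 in DESeq2.

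Liver makes much Apoe, and liver genes were high in A2B1 libraries 1 and 3. In A2B1 library 2, where the 12 liver genes summed to less than in any control, Apoe was at 1489.7 CPM, and the highest control was at 1142.5 CPM. Without A2B1 library 1 the log2 fold change was 0.87 (adjusted p = 0.192). With A2B1 library 2 as the only A2B1 library, which assumes that it varies like the controls and was added once the data had been seen, it was 0.69 (adjusted p = 0.527). Macrophages also make Apoe, and the sums of their markers are given above. The part of liver and macrophage transcripts in the value of Apoe was not tested.

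The exporters Abca1 and Abcg1, which pass cholesterol to apolipoproteins and to high density lipoprotein and are LXR targets as Apoe is, had values of opposite sign. Abca1 averaged 371 ± 46.1 CPM in A2B1 and 406 ± 19.9 CPM in control pads (SD, n = 3 each; log2 fold change -0.13, SE 0.11, adjusted p = 0.511). Abcg1 had 30.6, 47.1 and 53.9 CPM in A2B1 libraries and 30.2, 39.7 and 27.8 CPM in controls, with A2B1 library 1 among the controls. The log2 fold change was 0.43 (SE 0.24, adjusted p = 0.32), and 0.65 without A2B1 library 1. The median log2 fold change of the 9 uptake, transport and efflux genes was -0.06, with 4 positive and 5 negative.

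**Figure D4:**
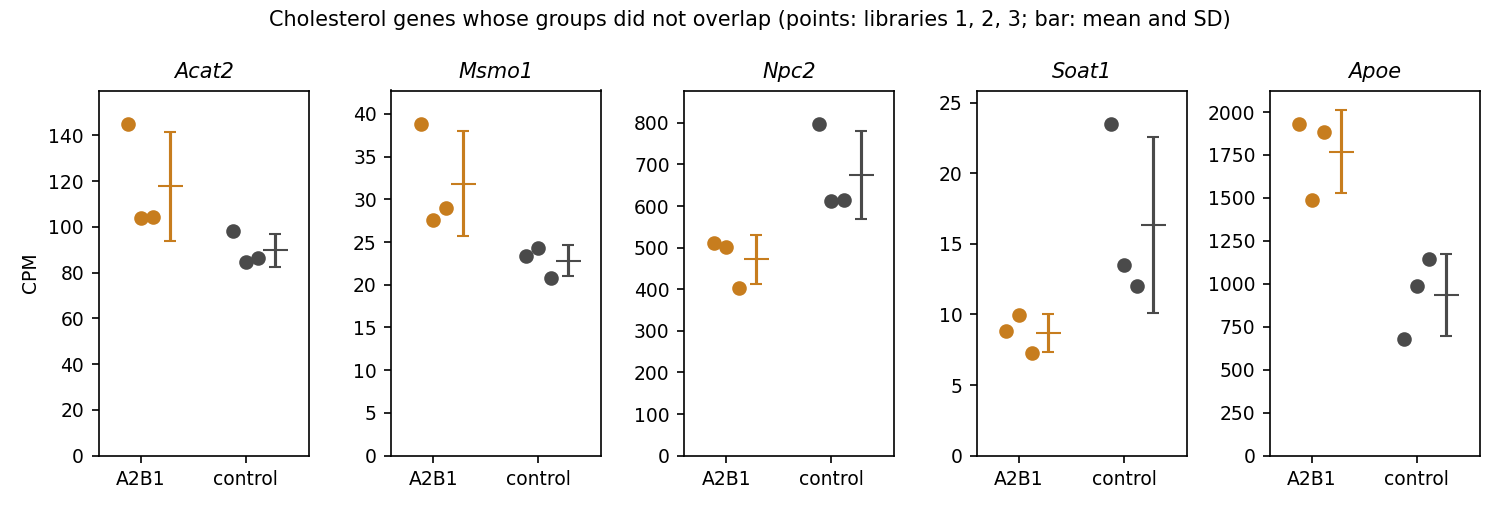
CPM of the 5 genes whose groups did not overlap, with a point for each library (1, 2 and 3 from left to right) and the mean ± SD of the group beside it, on axes that start at 0. Acat2, Msmo1 and Apoe are higher and Npc2 and Soat1 lower in all 3 A2B1 libraries, and control library 1 is the highest for Npc2 and Soat1 and the lowest for Apoe.

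A list of 44 other tested genes of cholesterol handling held 1 that rose and 1 that fell, and 42 that did not pass. Of all tested genes, 1.82% passed (0.496% higher, 1.33% lower). Srebf1, which drives fatty acid synthesis more than cholesterol synthesis, had 254, 232 and 280 CPM in A2B1 libraries and 153, 164 and 133 CPM in controls (log2 fold change 0.77, SE 0.12, adjusted p = 0.0375). This count is uncertain because Mir6922 and Rai1 share exon bases with the gene. Srebf2, the regulator of the synthesis genes, averaged 33.4 ± 1.2 CPM in A2B1 and 33.4 ± 3.61 CPM in control pads (SD, n = 3 each), and the 95% interval of the fold was 0.845 to 1.18. Srebf2 was not among the genes that were highest in A2B1 library 1, where it had 32.1 CPM, while control library 1 had 36.3 CPM, the highest of the 6 values.

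Lrpap1, the chaperone that keeps Lrp1 and its relatives from binding ligand too early, fell. It had 86.7, 90.8 and 81.6 CPM in A2B1 libraries and 154, 140 and 136 CPM in controls, a fold of 0.603 (95% interval 0.523 to 0.695; log2 fold change -0.73, SE 0.09, adjusted p = 0.0248 in edgeR's test). All A2B1 values were below all controls. The SREBP retention protein Insig1 had 0.21 on the log2 scale (SE 0.39, adjusted p = 0.783). The LXR gene Nr1h3 had 94.1 ± 1.68 CPM in A2B1 and 95.3 ± 3.68 CPM in control pads (SD, n = 3 each; adjusted p = 0.894), and its exons overlap Gm13783 on the same strand. By group, the 7 genes of SREBP processing had a median log2 fold change of 0.04, the 9 sterol carriers 0.14 and the 12 genes of LXR and oxysterols 0.11. Over the 44 the median was 0.10, with 15 at an unadjusted p under 0.05 (10 higher, 5 lower), which is 34.1% against 24.2% of all tested genes. Of the 10, Apoa1 is also in the liver list, and Apoa1, Apoc1, Lcat and Cyp7b1, named after their values were seen, were highest in A2B1 library 1. In that library these genes had 961, 188, 28.6 and 73.8 CPM, against 10.3, 37.7, 1.51 and 0.843 CPM in A2B1 library 2. Acat1 and Scp2 were highest there too, at 515.9 and 1448.1 CPM, against 419.6 and 1086.4 CPM in A2B1 library 2. The rest of the 10 were highest in A2B1 library 2 or 3. The part of liver transcripts in the share of 34.1% was not tested.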

How the data were processed

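RNA was extracted from frozen inguinal fat with Trizol and sequenced after an Illumina TruSeq RNA library preparation, per the labels' protocols. Groups were taken from the treatment in the labels. The deposited values are raw counts of reads, as whole numbers, for 52550 genes named by ID and symbol, per the file headers. Bowtie and mm10 are named, per the submitters' processing notes; no source used here gives the counting program, its annotation, its filters or its use of strand. The values 1, 2, 3 and 4 occur 8211, 6699, 7257 and 3493 times, so the counts may be rounded estimates. No column of another sample was present.

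Of 31438 genes with any count, 19146 passed edgeR's filterByExpr and were fitted together (R 4.3.3, edgeR 4.0.16, TMM scaling, robust quasi-likelihood F test, two-sided, Benjamini-Hochberg over all tested genes, called at an adjusted p under 0.05). The biological coefficient of variation was 33.6%. Each SE was taken from the fold change and its F value, and 95% intervals cover 1 gene at a time. CPM uses TMM-scaled library sizes. Coordinates, exon lengths and overlaps come from GENCODE M21 (mm10) by gene ID. Alternatives used DESeq2 1.42.0 and limma 3.58.1 (voom with sample quality weights), other scalings and filters, and libraries left out.

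The members, the lists and the tests were chosen with earlier results of these data known. All 27 members were named whatever their values. Of the other pathway and marker genes, those past the threshold and Srebf2, Insig1, Nr1h3 and Adipoq were named; other genes that the rule names are not reported here. The liver list, Alb, other marker genes below the threshold and the genes named as leading in 1 library were chosen after their values were seen. T cell, endothelial, fibroblast, mammary epithelial and skeletal muscle markers were also counted (closing section).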

Additional observations from a re-analysis of the deposited data

How the results depend on the processing

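The members were called in few settings. DESeq2's Wald test called 2919 genes and, of the members, 2 higher and 2 lower; an adjusted p under 0.1 gave 1270 genes, 1 member higher and 0 lower. In every other setting run, 0 of the 27 members were called, where at most 3.33% of all tested genes were. Leaving out 1 library at a time gave 10 to 57 called genes, and leaving out A2B1 libraries 1 and 3 gave 0, A2B1 library 1 and control library 1 gave 7; both pairs were added after seeing the data, and fits on fewer libraries have less power by construction. The median log2 fold change of the transport genes ranged from -0.16 (without control library 1) to 0.027 (without control library 2) and was -0.17 without A2B1 library 1 and control library 1. That of the synthesis genes ranged from -0.22 (without A2B1 library 1) to 0.27 (without control library 1).

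Log2 fold changes turned sign for 11 members in the planned settings, and their cause was not tested. Leaving out 1 library at a time, the ranges were -0.13 to 0.62 for Idi1, -0.18 to 0.51 for Fdps, -0.27 to 0.33 for Sqle, -0.12 to 0.33 for Ebp, -0.066 to 0.25 for Scarb1 and -0.26 to 0.23 for Stard4. They were -0.25 to 0.30 for Dhcr7, -0.40 to 0.16 for Lss, -0.61 to 0.12 for Cyp51, -0.40 to 0.30 for Nsdhl and -0.23 to 0.060 for Lrp1. With library totals only, Sqle had -0.031 and Stard4 -0.021. With limma-voom, Nsdhl had 0.041, Dhcr7 0.10 and Stard4 -0.034. Without A2B1 libraries 1 and 3, Idi1 had -0.80, Fdps -0.038, Sqle -0.23, Ebp -0.081, Scarb1 -0.052, Stard4 -0.14 and Abca1 0.084. Without A2B1 library 1 and control library 1, Hmgcs1 had 0.040, Lss 0.041, Nsdhl 0.084, Ebp -0.084, Dhcr7 0.069, Scarb1 -0.11 and Stard4 -0.17. The log2 fold changes of Apoe (0.74 to 1.09), Soat1 (-1.09 to -0.55), Npc2 (-0.58 to -0.37), Msmo1 (0.33 to 0.57) and Acat2 (0.23 to 0.48) kept their sign without any 1 library. No paired analysis was possible because the labels give the groups no shared replicate numbers.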

Other observations

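Summed levels of the other marker lists were 2.26 to 10.3 CPM in A2B1 libraries and 6.47 to 50.2 CPM in controls for 5 T cell genes. They were 634 to 793 CPM in A2B1 libraries and 736 to 1075.7 CPM in controls for 5 endothelial genes, and 807 to 1250.9 CPM in A2B1 libraries and 1234.8 to 1283.2 CPM in controls for 5 fibroblast genes. For the 4 mammary epithelial genes tested of 5 they were 47.6, 1.48 and 8.38 CPM in A2B1 libraries 1, 2 and 3, and 1.43 to 1.53 CPM in controls. In A2B1 library 1, Krt8 had 18.3, Krt18 20.6, Cdh1 8.70 and Epcam 0.072 CPM, and Krt14, the fifth, had no count in any library. The presence of mammary cells was not tested. Liver genes were also highest in A2B1 library 1, and their part in this sum was not tested. In these lists and among the 3 skeletal muscle genes tested, 0 genes passed edgeR's test, where 1.82% of all tested genes did. An unadjusted p under 0.05 was found for 24.2% of all tested genes. In the lists it was found for 0 of 5 T cell, 2 of 5 endothelial and 1 of 5 fibroblast genes, those found being lower in A2B1. It was also found for 2 of 4 mammary epithelial genes, both higher, and 2 of 3 skeletal muscle genes, both lower.

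Nnt, a mitochondrial transhydrogenase chosen after its values were seen, had 3.21, 0.843 and 1.12 CPM in A2B1 libraries and 22.96, 1.87 and 3.30 CPM in controls (log2 fold change -2.44, adjusted p = 0.25 in edgeR). As background, the C57BL/6J substrain carries a deletion in Nnt, and the labels give C57BL/6 only. Control library 1, where Nnt was highest, is also the control with the highest level of 17 synthesis genes. What lies behind these values was not tested.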
